A study of Mus musculus with 2 samples.

Results

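The matrix metalloproteinases (Mmp genes), the ADAMTS proteases (Adamts genes) and the tissue inhibitors of metalloproteinases (Timp genes) were followed in maps of accessible chromatin of the mouse lung. The members were all protein-coding genes of the GENCODE annotation of mm10 whose symbol is Mmp, Adamts or Timp followed by a number and at most 1 letter. This gave 45 genes, 22 Mmp, 19 Adamts and 4 Timp, of 21911 protein-coding genes. Accessibility was measured by DNase-seq, in which DNase I cuts open DNA in nuclei and the cut ends are sequenced. The samples were lungs taken at 14 days of age from male B6CASTF1/J mice, a hybrid strain, and the 2 libraries formed 1 group with no treatment named. Replicate 1 was labelled as male with no pool named and replicate 2 as a pool of 3 males. Both libraries carried the same donor record, so that separate animals are not established and the spread between them may be technical.

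Metalloproteinases of both protease families hold a catalytic zinc and are made as inactive precursors. The MMPs cleave collagens, elastin, basement membrane proteins and other secreted or membrane-bound proteins. ADAMTS proteases are secreted and mostly cut proteoglycans, procollagens and other large matrix proteins. TIMPs bind the active site of these enzymes and block it. In the mouse lung the second week after birth falls in the phase in which septa divide the air spaces into alveoli, and the matrix is laid down and remodelled during that time.

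A peak is a site of high DNase I cleavage in the list deposited for a library, and a promoter is called open here when a peak lies within 1 kb of any annotated transcript 5′ end of the gene. The strength of a peak is given as the percentile of its deposited score among all 94786 peaks of replicate 1 or all 77403 of replicate 2, with 100 as the highest. Percentiles were set side by side and the scores themselves were not compared between libraries. The files give no numbers of reads. Depth is therefore unknown for both libraries, and a closed promoter is one where no peak was listed at the threshold of the authors. In whole tissue, a site open in few cells and a site weakly open in many cannot be told apart. The tissue label was checked with marker genes: promoters were open in both libraries at 4 of 4 genes of lung epithelium, 4 of 4 of endothelium, 4 of 4 of fibroblasts and smooth muscle, 3 of 4 of macrophages and neutrophils, and 0 of 4 of liver, nerve, muscle and gut. Csf1r was the myeloid marker without a peak. With 1 group no contrast between conditions exists, and genes are not replicates, so no test was made.

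Promoters of 29 members were open in replicate 1 (64.4%) and of 27 in replicate 2 (60.0%), a mean of 28 ± 1.41 (SD, n = 2). Over all protein-coding genes the shares were 66.6% and 64.1%, so the members as a whole were near the background. All 27 members open in replicate 2 were open in both libraries, where the background is 63.6%, and 16 were open in neither, where it is 32.8%. The families differed in their counts: 10 of 22 Mmp, 14 of 19 Adamts and 3 of 4 Timp genes were open in both libraries. Mmp19 and Timp4 had a peak in replicate 1 only. The libraries ranked the 27 promoters in nearly the same order (Spearman's rho across genes 0.968, against 0.965 over 13925 protein-coding genes open in both), with a median difference of 4.71 percentile points. The largest difference was 26.1 points, at Adamts5.

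Open member promoters ranked lower than those of a typical open gene. The strongest peak had a median percentile of 72.1 in replicate 1 and 69.7 in replicate 2 among the 27 members, against 90.6 and 89.9 among all protein-coding genes open in both. Of the 27 members, 3 reached that median in replicate 1 and 5 in replicate 2, and Adamts17, Adamts6 and Timp2 did so in both. Still, 21 of 27 lay in the upper 50% of all peaks in each library. In 20 of 27 the centre of the strongest peak was within 250 bp of a transcript 5′ end in both libraries.

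**Figure D1:**
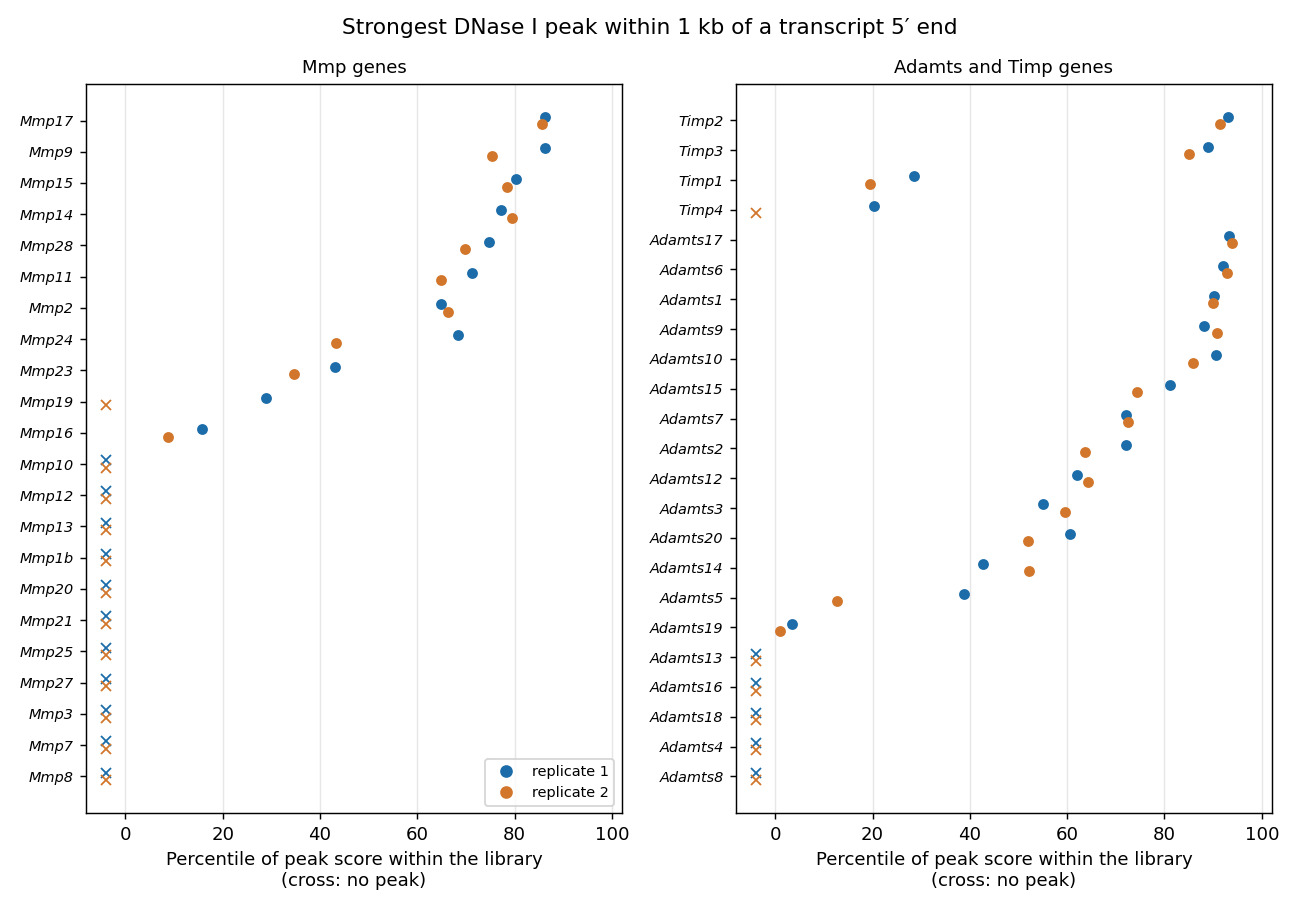
Percentile of the strongest promoter peak of each member (x axis, percentile among all peaks of the library; y axis, genes by family). Points are the 2 libraries and crosses mark libraries without a peak: Adamts17, Adamts6 and Timp2 stand above 90 in both, and 16 genes have crosses in both.

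The gelatinases, which cut denatured collagen and basement membrane collagen, both had an open promoter. Mmp2 (chr8:92827291-92853420), a product of stromal cells, stood at percentile 64.8 in replicate 1 and 66.3 in replicate 2. The strongest peak was not the same in the libraries: in replicate 1 it lay at an inner transcript start 12.9 kb into the gene and in replicate 2 at the outermost start, and both libraries had both peaks. Mmp9 (chr2:164940780-164955850), known from neutrophils and macrophages, had percentiles of 86.2 and 75.3. This peak ended 846 bp from an inner start 13.6 kb into the gene model, close to the 1 kb limit. The outermost start was closed in both libraries. The state of Mmp9 therefore depended on counting every annotated transcript start and on the window of 1 kb.

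Membrane-bound MMPs act at the cell surface, and 6 of 7 were open in both libraries, against 63.6% of all protein-coding genes. Groups of this size are too small to be set against that share. Mmp17, a lipid-anchored member, had the highest Mmp percentiles, 86.3 and 85.7. Mmp15 had 80.2 and 78.5. Mmp14, which activates the precursor of MMP2 together with TIMP2, had 77.3 and 79.5. For these 3 genes the libraries gave nearly the same rank. Mmp24 had 68.4 and 43.4, and Mmp16 15.7 and 8.77. Mmp23 had 43.1 and 34.7 at peaks that did not overlap: the replicate 2 peak, near an inner start 1.36 kb into the gene, had a partner in replicate 1 at 37.6, and the outermost start was closed in replicate 2. Mmp25, a lipid-anchored enzyme of neutrophils, was closed. Among the remaining Mmp genes, Mmp28 (epilysin) stood at 74.8 and 69.7 and Mmp11 (stromelysin-3) at 71.2 and 65.0. Both libraries had the same 2 Mmp11 peaks and differed in which ranked first, and Chchd10 also has a start near them. Mmp19 had a peak at percentile 29.0 in replicate 1 and none in replicate 2. Mmp21, known from left-right patterning, was closed in both.

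ADAMTS proteases that cut proteoglycans such as versican and aggrecan were open in 5 of 7 cases, near the 63.6% of all protein-coding genes. Adamts1 (chr16:85793827-85803113) had percentiles of 90.2 and 89.96 with 4 and 5 promoter peaks, and Adamts9 (chr6:92772699-92943492) had 88.2 and 90.8. Adamts15 followed with 81.2 and 74.5. These were high in both libraries. Adamts20 was open only at an inner start 61.1 kb into the gene model, at 60.6 and 51.9, and Adamts5, next to Adamts1 on chromosome 16, only had a weak peak at 38.7 and 12.6. Adamts4 and Adamts8 were closed. Their substrate versican (Vcan) had an open promoter at 82.0 and 81.8, while aggrecan (Acan) had none.

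The fibrillin-associated genes Adamts6 (chr13:104287835-104496695) and Adamts10 (chr17:33524204-33553782), which act on the microfibrils around elastic fibres, were both among the strongest. Adamts6 had percentiles of 92.0 and 92.8 and Adamts10 90.6 and 85.9. No Adamts6 peak lay nearer to a transcript start than 566 bp in replicate 1 and 606 bp in replicate 2. With a window of 500 bp this promoter was therefore not open. Adamts17 (chr7:66839735-67153171), mutated like ADAMTS10 in a human syndrome of short stature and lens defects, had the highest mean percentile of all 45 members, with 93.3 and 94.0. Its relative Adamts19 was near the floor of both lists, at 3.51 and 0.933. The strongest Adamts19 peak of replicate 1 had no partner in replicate 2. A weaker one, near an inner start 130.7 kb into the gene model, overlapped the replicate 2 peak. The outermost Adamts19 start was closed in replicate 2. All 3 procollagen N-propeptidases, which trim the amino end of fibrillar procollagens, were open at middle ranks. Adamts2 had 72.1 and 63.6, Adamts3 54.9 and 59.7, and Adamts14 42.8 and 52.2. Of the enzymes that cut cartilage oligomeric matrix protein, Adamts7 had 72.1 and 72.4 and Adamts12 62.1 and 64.2. Adamts13, which cleaves von Willebrand factor and is made mainly in the liver, was closed, as were Adamts16 and Adamts18.

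Sequence is shown for the strongest Adamts promoter peaks, as the bases common to the peaks of both libraries and outside annotated exons, on the strand of the gene. Capitals mark footprints, stretches within open DNA protected from cleavage, that both libraries listed. The windows are chr7:66839581-66839700 for Adamts17, chr13:104286941-104287160 for Adamts6 and chr16:85803114-85803320 for Adamts1, read from GRCm38, which has the coordinates of mm10. The third strongest member, Timp2, has its peak over the first exon and is left out.
Adamts17: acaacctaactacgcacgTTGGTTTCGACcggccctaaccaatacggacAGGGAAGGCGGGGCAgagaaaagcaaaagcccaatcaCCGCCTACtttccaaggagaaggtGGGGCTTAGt
Adamts6: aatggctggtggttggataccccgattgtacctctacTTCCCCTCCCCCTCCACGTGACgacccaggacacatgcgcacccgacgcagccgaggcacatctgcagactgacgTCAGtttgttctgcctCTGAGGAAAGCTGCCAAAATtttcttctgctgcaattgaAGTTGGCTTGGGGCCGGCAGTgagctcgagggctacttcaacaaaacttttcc
Adamts1: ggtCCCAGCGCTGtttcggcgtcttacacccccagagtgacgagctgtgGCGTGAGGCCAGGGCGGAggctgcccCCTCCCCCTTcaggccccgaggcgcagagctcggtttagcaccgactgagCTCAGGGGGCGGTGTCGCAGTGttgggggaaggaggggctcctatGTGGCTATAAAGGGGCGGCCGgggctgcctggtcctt
Of these, Adamts17 has 43 of 120 bases in footprints of both libraries, Adamts6 67 of 220 and Adamts1 81 of 207. The KLF/SP consensus GGGCGG occurs in 41.3% of the 63 member promoter peaks of replicate 1 and 42.0% of the 50 of replicate 2, counted on both strands within 75 bp of the peak centre. Over all promoter peaks these shares are 41.8% and 44.3%.

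The inhibitors ranged from a promoter among the strongest of all members to one with a weak peak in replicate 1 only. Timp2 (chr11:118301069-118355740), an inhibitor that also bridges MMP14 and the MMP2 precursor, had percentiles of 93.1 and 91.4. Timp3 (chr10:86300372-86349506), which is bound to the matrix and also inhibits ADAMTS proteases, had 88.8 and 85.0. Its strongest peak lay near the outermost starts in replicate 1 and 2.48 kb further in for replicate 2. Both libraries had both peaks, at 88.8 and 83.1 near the outermost starts and at 83.3 and 85.0 further in. Timp1 (chrX:20870166-20874735), an inducible inhibitor of MMP9 among others, was weakly open at 28.5 and 19.5. Timp4 (chr6:115241892-115252205) had a peak in replicate 1 only, at 20.3, and Syn2 has a start at the same peak. Timp1, Timp3 and Timp4 each lie inside a synapsin gene on the opposite strand: Timp1 in an intron of Syn1, Timp3 within Syn3 and Timp4 within Syn2. The synapsin promoters stood at 76.9 and 76.4 (Syn1), 91.5 and 88.9 (Syn3) and 78.6 and 75.2 (Syn2). Apart from the Timp4 peak of replicate 1, no promoter peak was common to a Timp gene and its host.

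The 16 closed members were in large part neighbours. Of them 9 form a cluster on chromosome 9 (chr9:7272514-7699585, 427 kb) with, in map order, Mmp13, Mmp12, Mmp1b, Mmp3, Mmp10, Mmp8, Mmp27, Mmp20 and Mmp7. These encode collagenases (Mmp13, Mmp1b, Mmp8), stromelysins (Mmp3, Mmp10), the macrophage elastase (Mmp12), matrilysin (Mmp7), the enamel protease (Mmp20) and Mmp27. Open promoters were 0 of 9 in either library. Outside the cluster 27 of the 36 members (75%) and 10 of the 13 Mmp genes were open in both, where the share of all protein-coding genes is 63.6%. Leaving out 9 genes that were all closed raises the share of the rest, while the background keeps its closed genes. The remaining members can therefore not be called above the background. Neighbouring genes share their surroundings and are not independent observations.

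The cluster held 4 peaks in each library, 0.937 per 100 kb, against 3.48 and 2.84 per 100 kb over the genome. The same 4 sites were found in both, and none lay within a gene of the cluster. They began at chr9:7545561, at chr9:7554508 in replicate 1 and chr9:7554519 in replicate 2, at chr9:7595341 and at chr9:7603421. Each held between 2 and 4 footprints. The strongest, between Mmp27 and Mmp20, stood at percentile 86.2 in replicate 1 and 88.1 in replicate 2. The others had 61.4 and 68.2, 46.4 and 46.3, and 73.6 and 68.8. Mmp13, Mmp12, Mmp1b, Mmp3 and Mmp10 lay in a stretch without a peak, apart from a site 2114 bp from the start of Mmp13 on its outer side (38.7 and 38.4). Genes on either side were open: Dync2h1 and Dcun1d5, which share a peak, stood at 96.0 and 94.0, Tmem123 at 99.8 and 99.7, Birc2 at 96.5 and 95.2 and Yap1 at 90.9 and 89.96.

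**Figure D2:**
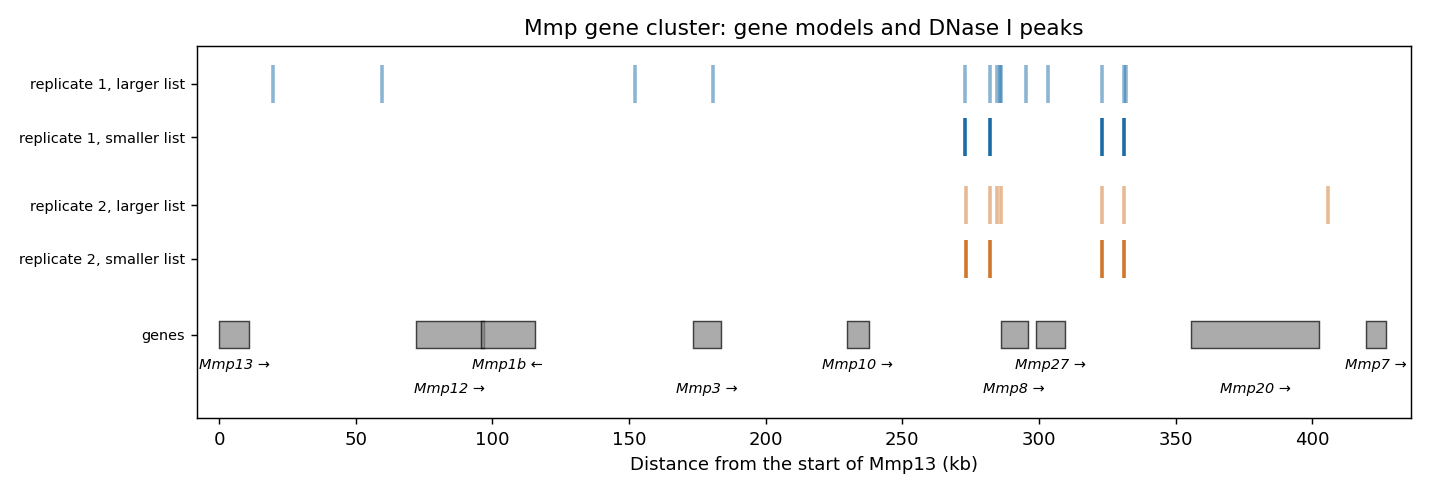
Map of the Mmp cluster, with gene models as boxes (arrow: direction of transcription) and peak centres as ticks for each library and peak list (x axis, distance from the start of Mmp13 in kb). The smaller lists have 4 ticks each, at the same places between 273 and 331 kb, and none at a gene start.

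The larger peak file of each library, with weaker sites, had 14 peaks in the cluster in replicate 1 and 7 in replicate 2. There, Mmp8 (the neutrophil collagenase) had sites near its start in both libraries, with centres 355 and 360.5 bp from it. Replicate 1 had a further site 41.5 bp from it. Mmp8 was also the cluster gene with bases within 1 kb of its start in the FDR files, which list bases up to a false discovery rate of 0.05; the lowest values were 0.00144 and 0.00674. The other 8 cluster genes had no such base in either library. Among the members closed in each library, 7 of 16 in replicate 1 and 4 of 18 in replicate 2 had a listed base. Among all protein-coding genes without a promoter peak the shares were 14.2% and 14%. Both counts, of which that of replicate 2 includes Mmp19, are too small to be set above these shares. Outside the cluster the closed members with listed bases in both libraries were Adamts4 and Adamts13, and Adamts8, Adamts18, Mmp21 and Mmp25 had them in replicate 1 only. Adamts16 had none. Mmp19, closed in replicate 2, had a lowest value of 0.00291 there, and Timp4 had none.

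The upstream sequence of the cluster genes is shown because 6 of the 9 share 2 short elements. Printed are the 120 bases before the outermost 5′ end on the strand of the gene. Matches to TGANTCA (the AP-1 consensus) and TATAAA (the TATA box consensus) are in capitals, and Mmp8 is an example without either. The windows are chr9:7272394-7272513 for Mmp13, chr9:7388048-7388167 (minus strand) for Mmp1b, chr9:7445702-7445821 for Mmp3, chr9:7502232-7502351 for Mmp10, chr9:7628111-7628230 for Mmp20, chr9:7691970-7692089 for Mmp7 and chr9:7558336-7558455 for Mmp8.
Mmp13: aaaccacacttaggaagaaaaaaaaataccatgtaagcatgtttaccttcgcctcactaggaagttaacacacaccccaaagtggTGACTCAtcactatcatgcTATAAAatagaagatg
Mmp1b: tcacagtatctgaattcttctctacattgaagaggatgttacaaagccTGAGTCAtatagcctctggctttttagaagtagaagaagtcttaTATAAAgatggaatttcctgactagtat
Mmp3: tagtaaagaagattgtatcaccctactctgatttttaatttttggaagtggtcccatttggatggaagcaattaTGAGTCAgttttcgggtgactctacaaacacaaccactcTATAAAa
Mmp10: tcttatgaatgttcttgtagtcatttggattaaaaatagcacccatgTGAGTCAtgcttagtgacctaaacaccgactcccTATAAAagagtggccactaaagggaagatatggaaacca
Mmp20: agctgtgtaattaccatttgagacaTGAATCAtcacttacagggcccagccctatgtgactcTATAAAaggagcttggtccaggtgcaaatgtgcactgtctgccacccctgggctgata
Mmp7: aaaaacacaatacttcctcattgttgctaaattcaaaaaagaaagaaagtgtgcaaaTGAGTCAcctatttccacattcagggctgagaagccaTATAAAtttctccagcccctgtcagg
Mmp8: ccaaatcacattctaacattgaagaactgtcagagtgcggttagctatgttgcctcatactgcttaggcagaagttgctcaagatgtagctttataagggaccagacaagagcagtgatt
AP-1, a dimer of Fos and Jun proteins, is an inducible factor long studied at collagenase and stromelysin promoters. The AP-1 match began 35 bases before the annotated start in Mmp13, 72 in Mmp1b, 46 in Mmp3, 73 in Mmp10, 95 in Mmp20 and 63 in Mmp7. TATAAA stood downstream of it in each, at 16, 28, 7, 39, 58 and 26 bases. Both elements occurred together in 61 of 21911 protein-coding genes (0.278%) and in 0 of the 36 other members. With every annotated transcript start counted, they were found in 7 of 9, now with Mmp12, in 0.525% of all genes and in 1 of the 36 others. These genes are related copies, so a shared sequence was not found independently in each. A match does not show that a factor binds or that TATAAA serves as a TATA box. Both searches were chosen after the sequences had been seen.

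Open and closed members differed in the CpG content around their start. CpG observed over expected, the number of CG pairs relative to the C and G content, was taken over 500 bp on each side of the outermost 5′ end. The median was 0.62 in the 27 members open in both libraries and 0.18 in the 16 open in neither, against 0.71 and 0.18 among all protein-coding genes. The 9 cluster genes lay between 0.023 and 0.21. The 7 closed members outside the cluster ranged from 0.099 to 0.83: Adamts8 (0.83) and Adamts18 (0.72) were CpG-rich and closed, followed by Mmp25 (0.51) and Adamts16 (0.36), while Mmp21, Adamts4 and Adamts13 were at or below 0.19. Among members called open, Mmp9 (0.22), Adamts12 (0.29), Adamts5 (0.30) and Timp1 (0.30) were the lowest, overlapping the closed group. At Mmp9 and Adamts20, however, the outermost start was closed in both libraries, and at Adamts19 and Mmp23 in replicate 2. Their CpG values are therefore not those of a start open in both libraries. They still enter the median of open members and the correlation that follows. Within the 27 open members CpG content and mean percentile were weakly related (Spearman's rho across genes 0.129, against 0.390 in all open protein-coding genes), a description across genes of the same libraries.

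**Figure D3:**
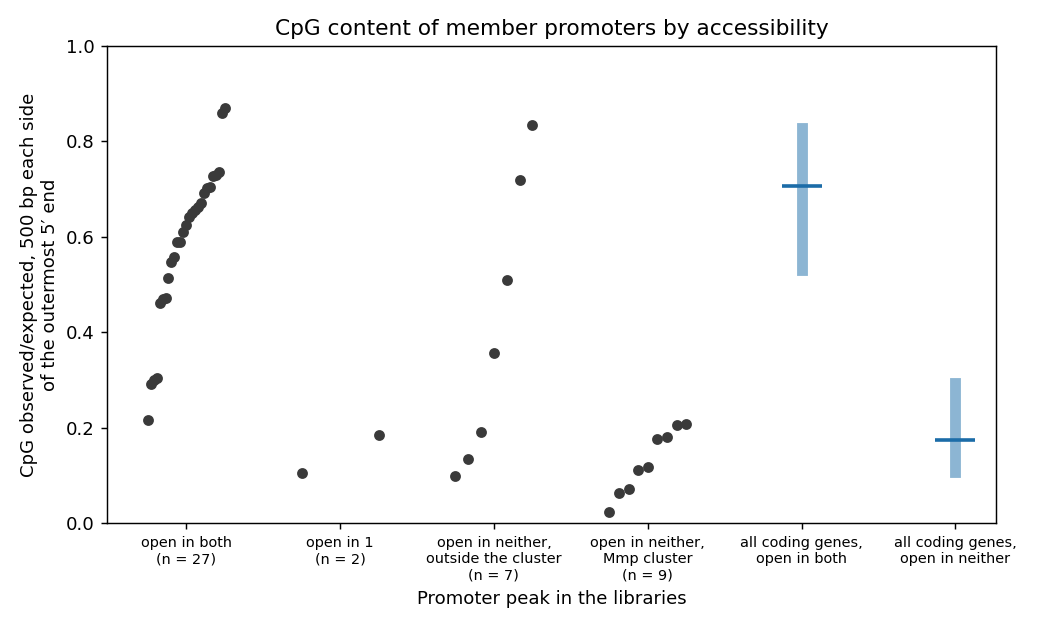
CpG observed over expected around the outermost 5′ end (y axis, a ratio without unit) of each member, by whether its promoter had a peak (x axis). Points are genes; for all protein-coding genes the line is the median and the bar the range between quartiles. The 9 cluster genes lie at or below 0.21, and 2 of the 7 other closed genes lie above 0.70.

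Distal peaks, more than 1 kb from every annotated transcript 5′ end of protein-coding and long noncoding genes, were counted over each gene model and 20 kb on each side. At least 1 was found for 39 of 45 members in replicate 1, with a background of 73.4% of protein-coding genes, and for 37 members in replicate 2, with a background of 69.1%. In all there were 222 distal sites in replicate 1 and 183 in replicate 2, a mean of 202.5 ± 27.6 (SD, n = 2). Each listed peak counted as 1 site, also where peaks of the same library overlapped. Of these, 167 (75.2%) of replicate 1 and 166 (90.7%) of replicate 2 overlapped a peak of the other library by at least 1 bp, against 71.0% and 87.9% of all distal peaks. The median member had 3 sites in each library and the median protein-coding gene 2 and 1. Since counts grow with length, the density is given as well: the median was 4.48 and 4.06 sites per 100 kb in members and 2.49 and 2.12 in all protein-coding genes. Of the 45 members, 27 lay above that median in both libraries, and the share of all protein-coding genes that did so is not given here. Mmp3, Mmp10, Mmp12, Mmp1b, Mmp16 and Mmp20 had no distal site in either library.

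**Figure D4:**
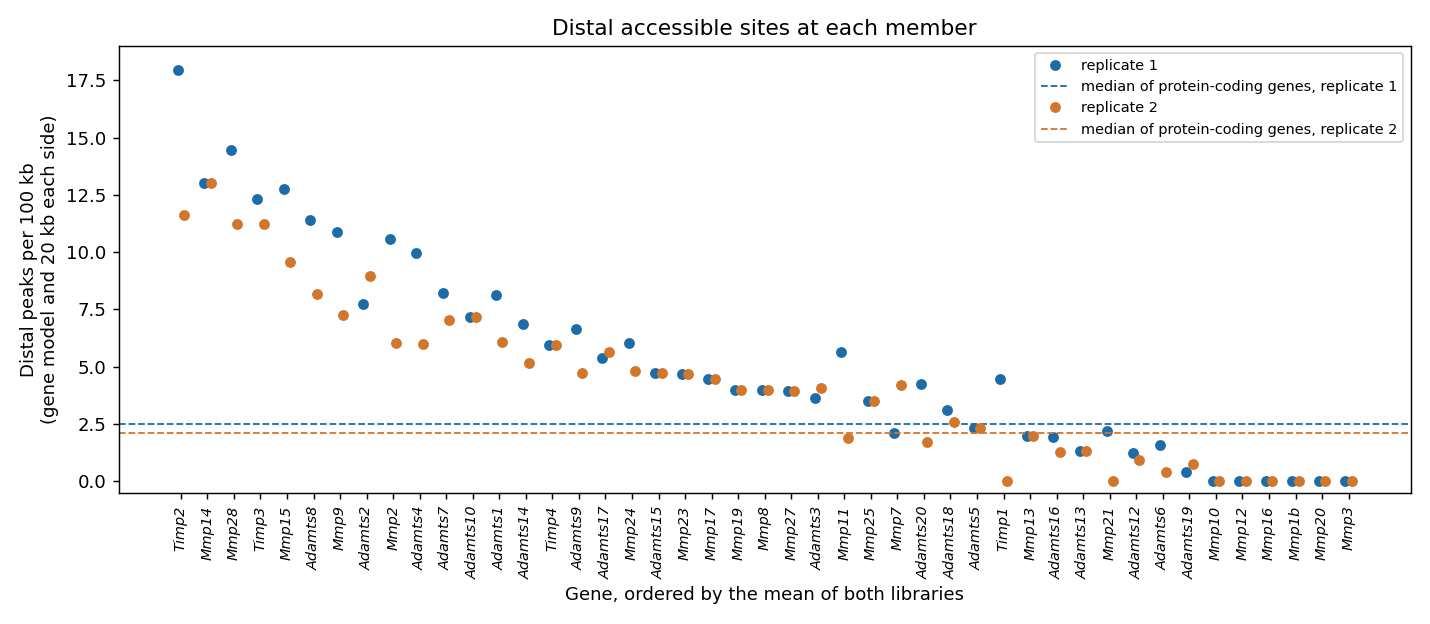
Distal sites per 100 kb of gene model and flanks (y axis) for each member (x axis, ordered by the mean of both libraries), with a point for each library. Dashed lines are the medians of all protein-coding genes, 2.49 and 2.12. Timp2, whose overlapping peaks were counted separately, and Mmp14 are at the upper end.

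Adamts2 (chr11:50602084-50807573), the main procollagen I N-propeptidase, had the most sites shared by both libraries: 19 and 22 sites, of which 18 were shared. Adamts17 had 19 and 20 with 14 shared, and Adamts9 had 14 and 10 with 10 shared. Timp2 had 17 and 11, of which 10 and 11 were shared. Some of its listed peaks overlap, such as chr11:118363021-118363240 and chr11:118363021-118363480 in replicate 2, and each was counted. Adamts3 had 9 and 10 with 9 shared, Timp3 11 and 10 with 8 shared, and Mmp28 9 and 7 with 7 shared. Then came Adamts7, Adamts14, Mmp14 and Mmp15 with 6 shared sites each. Per 100 kb the order changed, since Adamts2, Adamts3, Adamts9 and Adamts17 are long genes. Timp2 had 17.96 and 11.6, Mmp14 13.0 in both, Mmp28 14.4 and 11.2 and Timp3 12.3 and 11.2. With overlapping peaks counted separately, the Timp2 values are upper limits, and its place among these genes is not settled. Adamts6, with one of the strongest peaks within 1 kb of a start, had 1.61 and 0.402 per 100 kb. All 11 and 10 sites of Timp3 lie within the Syn3 gene model as well, so they cannot be assigned to Timp3 over Syn3.

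Inside the gene model lay 116 of 225 assignments of a site to a member in replicate 1 and 106 of 186 in replicate 2. The upstream flank held 66 and 49 and the downstream flank 43 and 31. Within the model of another gene lay 41 and 29. In each library 3 sites counted for a pair of members, Adamts8 with Adamts15 or Mmp8 with Mmp27. The median site was 14.4 and 16.8 kb from the nearest start of its member. Member sites had a median percentile of 51.9 and 49.4, against 43.1 and 41.9 for all distal peaks. Sites found in both libraries were stronger, with medians of 61.1 and 51.8, than sites without a partner, with 29.9 and 22.3, and the same order held for all distal peaks (54.9 and 46.7 against 20.3 and 14.6). At least 1 footprint was listed in 91.4% and 92.9% of member distal sites, against 92.5% and 89.1% of all distal peaks. For member promoter peaks it was 87.3% and 86.0%, against 81.0% and 83.2%.

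The 8 strongest shared distal sites, 1 per member, belonged to Adamts9, Mmp2, Mmp9, Adamts2, Timp3, Mmp14, Adamts7 and Adamts15, with mean percentiles from 87.5 to 91.9. None lay in an exon. The Adamts9 site, in an intron 67.1 kb from the nearest start, had 93.7 and 90.2. The Mmp2 site, 8.92 kb upstream, had 92.1 and 89.3, and the Mmp9 site, 16.1 kb upstream, 92.4 and 88.3. The Mmp14 site, 10.6 kb beyond the nearest start and past the gene end, had 89.3 and 86.5. The site upstream of Adamts15 lies between the divergent genes Adamts15 and Adamts8, 18.1 kb from the former and 1962 and 1922 bp from the closed start of the latter, and had 91.7 and 83.3. For Adamts2 the values were 92.1 and 87.2, for Adamts7, within a site shared with the Tbc1d2b model, 93.4 and 81.9, and for Timp3 89.7 and 89.5.

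The sequences common to both libraries are shown for 6 of these sites, plus strand, GRCm38, with bases in footprints of both libraries in capitals. They are chr6:92787441-92787600 (Adamts9), chr8:92818281-92818460 (Mmp2), chr11:50769581-50769740 (Adamts2), chr14:54449081-54449260 (Mmp14), chr9:90206621-90206780 (Adamts7) and chr2:164924581-164924720 (Mmp9). The first 5 hold AGNNGGCG on either strand, within a footprint of both libraries, and the Mmp9 site does not.
Adamts9: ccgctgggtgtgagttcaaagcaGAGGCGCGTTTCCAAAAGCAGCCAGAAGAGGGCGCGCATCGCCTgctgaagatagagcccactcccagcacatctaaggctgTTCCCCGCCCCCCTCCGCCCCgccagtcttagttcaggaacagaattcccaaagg
Mmp2: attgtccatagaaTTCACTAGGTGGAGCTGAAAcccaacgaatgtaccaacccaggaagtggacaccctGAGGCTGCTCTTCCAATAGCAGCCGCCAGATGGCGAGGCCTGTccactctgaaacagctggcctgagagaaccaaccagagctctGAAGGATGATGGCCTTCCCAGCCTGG
Adamts2: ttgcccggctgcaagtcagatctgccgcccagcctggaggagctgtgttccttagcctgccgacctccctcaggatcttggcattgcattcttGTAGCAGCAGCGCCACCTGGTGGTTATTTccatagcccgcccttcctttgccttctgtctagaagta
Mmp14: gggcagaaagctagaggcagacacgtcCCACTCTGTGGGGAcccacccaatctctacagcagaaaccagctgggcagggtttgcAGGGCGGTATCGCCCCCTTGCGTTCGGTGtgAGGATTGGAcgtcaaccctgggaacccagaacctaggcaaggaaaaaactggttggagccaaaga
Adamts7: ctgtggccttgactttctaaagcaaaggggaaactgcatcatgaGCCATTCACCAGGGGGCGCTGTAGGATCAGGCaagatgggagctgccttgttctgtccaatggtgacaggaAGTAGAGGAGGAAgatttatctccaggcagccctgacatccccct
Mmp9: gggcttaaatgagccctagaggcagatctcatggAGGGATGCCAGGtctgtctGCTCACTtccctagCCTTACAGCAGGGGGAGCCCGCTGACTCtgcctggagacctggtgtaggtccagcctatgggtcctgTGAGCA
AGNNGGCG is part of the consensus of CTCF, a factor that bounds chromatin loops, in a form that ends in G. It was searched after the sequences had been seen. It occurred in 5 of the 8 strongest sites. Among all member distal sites it was found in 13.1% and 13.7%, against 13.7% and 13.8% of all distal peaks, and among those in the highest-scoring 10% of all distal peaks in 11 of 23 (47.8%) and 7 of 21 (33.3%), against 33.6% and 28.0%. Strong distal peaks in general held it more often, so it was not particular to the members.

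Most other matches in distal sites stood near the background. Fewer matches were found to a longer CTCF sequence ending in A in distal sites and to ETS in promoter peaks. Of 11 consensus sequences searched on both strands within 75 bp of the peak centre, AP-1 (TGANTCA) was in 5.86% and 6.01% of member distal sites, against 6.68% and 6.75% of all distal peaks. TEAD (GGAATG) was in 11.7% and 12.02%, against 11.3% and 11.2%, and CEBP (TTGCNNAA) in 5.86% and 8.20%, against 8.79% and 9.08%. RUNX (TGTGGTT) was in 5.41% and 4.92%, against 3.60% and 3.83%, the GATA consensus AGATAA in 4.50% and 6.56%, against 5.33% and 5.70%, and FOX (TGTTTAC) in 3.60% and 4.37%, against 3.16% and 3.41%. The full CTCF consensus, which ends in another base than AGNNGGCG so that a match to both at the same place cannot occur, was in 4.50% and 4.92%, against 8.60% and 8.51%. The ETS consensus (CCGGAAG) was in 2 of 63 and 0 of 50 member promoter peaks, against 7.64% and 8.64% of all promoter peaks. NFI and NF-kB were in at most 2 member distal sites of either library.

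Other genes of pericellular proteolysis, 48 in 7 lists, were open in both libraries in 36 cases (75%), against 63.6% of all protein-coding genes. The single lists are too small to be set against that share. Of the membrane proteases of the ADAM family 7 of 8 were, led by Adam9 (99.9 and 99.7), Adam10 (98.7 and 98.4) and Adam17 (96.1 and 97.1), which shed cell surface proteins, above every member of the 3 families. The ADAMTS-like proteins, which lack a protease domain, were open in 6 of 6, with Adamtsl2 at 88.7 and 87.3, Adamtsl5 at 89.8 and 80.1 and Adamtsl4 at 90.9 and 78.7. In the plasminogen system, which activates several MMPs, 4 of 8 were open, among them Plat (89.9 and 87.3) and Plaur (70.2 and 66.1), and Plg, Serpinb2 and Serpinf2 were closed. Regulators of the proteases were open in 9 of 10, led by Bsg (99.0 and 99.3), Lrp1 (87.8 and 90.6) and the MMP inhibitor Reck (90.4 and 86.3). Procollagen processing genes were open in 4 of 5, with Bmp1 at 83.1 and 77.4, Pcolce at 79.8 and 76.1 and Tll2 at 58.0 and 49.7. Cathepsins and their inhibitor were open in 4 of 7, led by Ctsd (98.1 and 98.3), Cst3 (96.0 and 94.6) and Ctsl (93.7 and 93.6), while Ctsg and Ctss were closed. Of the lecticans, proteoglycan substrates, 2 of 4 were open, Vcan and Ncan (54.9 and 27.6), and Acan was closed.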

How the data were processed

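DNase-seq peaks, footprints and false discovery rates of 2 lung libraries were used as the authors deposited them, on mm10 per the labels. For aligner, peak caller and versions nothing is stated in the labels or headers. Column 7 of the deposited peak files, a signal never below 0, served as the peak score and only as a rank within its own library. The deposited FDR files hold p-values adjusted by the authors (a false discovery rate) for runs of bases, and the footprint files hold the constant p-value threshold 0.01. In each library the peak file with fewer lines was used. Reads of the 2 parental strains are not separated in these files, and the effect of aligning hybrid reads to 1 reference was not tested.

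Gene models came from GENCODE M21, with 117310 transcripts of 32093 protein-coding and long noncoding genes giving 5′ ends. Sequence was read from GRCm38. Mmp1a is annotated there as a polymorphic pseudogene and is no member. Computation used Python 3.11.15, numpy 2.4.6, pandas 2.3.3, scipy 1.17.1 and matplotlib 3.10.9, and the counting was tested on simulated data with planted peaks. Values in each library are given for the 12 members with the highest mean percentile, all Timp genes, members open in 1 library, the 8 with most shared distal peaks and the cluster, and for others where their group is described. Of each partner list up to 3 members with the highest mean percentile and up to 3 closed ones were named, except 1 gene of the plasminogen list that is not reported here. Promoter sequence was taken from the 4 members with the highest mean percentile, without exons. The members and lists were chosen with earlier results of these data known. Alternatives were other windows, flanks, peak lists and overlaps, and leaving out each library.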

Additional observations from a re-analysis of the deposited data

How the results depend on the processing

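Distal counts depend on the flank and on the peak list. The 166.5 distal sites shared by both libraries (mean of both lists) became 94.5 with no flank, 317.5 with a flank of 100 kb, 255 with the larger peak files and 79.5 with the upper 50% of peaks by score. In the same order the mean count of 202.5 became 111, 394, 315.5 and 103.5, and the median of 3 per member became 1, 8, 5 and 1.5. The share of distal sites with a footprint, 92.2%, became 81.7% with the larger files, 98.6% with the higher-scoring 50% and 90.7% when a footprint had to lie wholly inside. For promoter peaks, 86.7% became 87.8% with a window of 500 bp, 87.9% with 2500 bp, 83.7% with outermost starts only, 81.7% with the larger files and 98.6% with the higher-scoring 50%.

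The count of 27 promoters open in both libraries became 22 at 500 bp (without Adamts5, Adamts6, Adamts14, Adamts19 and Mmp9), 30 at 2500 bp (with Adamts8, Adamts16 and Mmp13), 23 with outermost starts only (without Adamts19, Adamts20, Mmp9 and Mmp23), 31 with the larger files (with Adamts4, Adamts13, Mmp8 and Mmp19) and 20 with the higher-scoring 50%. Of the chromosome 9 cluster, 1 gene was open at 2500 bp (Mmp13) and 1 with the larger files (Mmp8). No paired analysis was possible because there is 1 group and no test. Leaving out a library gives the values of the other, and no value for shared sites. With the read depth unknown, a weak site missing from a list cannot be told apart from a closed one.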

Other observations

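Strong distal sites also stood near members whose promoter was closed or weak. Mmp19, with a promoter peak in replicate 1 only, had a distal site in its flank at percentile 86.4 in replicate 1 and 88.1 in replicate 2. Adamts13 had a site at 84.5 and 72.0 in the gene model of Cacfd1, and Mmp25 had one at 80.2 and 75.8 in an exon of its own gene model and another at 74.9 and 72.9 in that of Zscan10. Adamts4 had 5 and 3 distal sites, the strongest at 76.2 and 71.9. In contrast, Mmp16, with an open promoter at a low rank and a gene model of 266 kb, had no distal site in either library.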
